A study of Mus musculus with 10 samples.

Results

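Mitochondrial DNA is a small circle that encodes a few subunits of the respiratory chain and the ribosomal and transfer RNAs used to translate them. The mitochondrially encoded genes described here were all rows of the deposited expression table whose chromosome was MT, which gave 37 of 54987 genes: 13 protein genes, 2 rRNA genes and 22 tRNA genes. The tissue was the popliteal lymph node, the node behind the knee into which the hind paw drains, taken on day 15 from BALB/c males aged 6 to 8 weeks. The Control group had saline injected under the skin of the right hind paw (3 libraries, numbered 15, 16 and 17). In the AIA group 0.1 ml of complete Freund's adjuvant, used to induce arthritis, was injected at the same site (4 libraries, 5, 10, 31 and 38). The Acu group had the same adjuvant and acupuncture, at ST36 by the series title (3 libraries, 4, 6 and 28). No transgene, deletion or other allele is named for any group. A sham acupuncture group was not analysed here, so acupuncture and handling cannot be told apart. Whether libraries are separate mice is not stated in the labels, and p-values then reflect only how these libraries vary, which may be technical.

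The chain's complexes I, III, IV and V are built from mitochondrial and nuclear subunits together, whereas complex II is wholly nuclear. Both strands of mitochondrial DNA are transcribed as long precursors that are cut at the tRNAs lying between the other genes, so that genes of the same strand begin with a shared transcript and reach different levels through processing and stability. The mouse nuclear genome also holds old copies of mitochondrial DNA, and short reads from an exact copy cannot be assigned with certainty.

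Several libraries stood apart before any mitochondrial gene was considered. The reads behind the FPKM (fragments per kilobase of gene per unit of library depth) were recovered from the table, and 85333 (AIA 10) to 2680757 (Control 16) of them per library fell on the mitochondrially encoded genes. AIA 10 had 15116 genes above 0, against 21224 to 24411 in the other 9. In the libraries labelled Control 17 and Acu 4, 9 of 10 decidua markers exceeded 1 FPKM, with mean log2(FPKM + 1) levels of 6.73 and 5.35 against 0.46 to 1.25 elsewhere, and 0 and 1 of 10 B cell markers did. Control 15 had 2 of 10 B cell markers above 1 FPKM and a mean B cell level of 0.51 on that scale, against 5.83 to 6.57 in the 7 libraries other than these 3. Of 10 trophoblast markers, 6 exceeded 1 FPKM in Control 17 and 9 in Acu 4, against 0 in each other library. Decidua and trophoblast are tissues of pregnancy, so Control 17 and Acu 4 went against both the labelled tissue and the stated sex. Why was not tested. Control 15, Control 17 and Acu 4 went against their labelled tissue by its lymphocyte markers, and test calls that rest on these 3 libraries are given with and without them.

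Mitochondrial transcripts took up the largest part of Control 15 and Control 16 and the smallest part of AIA 10. The 37 genes made up 24.5%, 34.2% and 5.72% of summed FPKM in Control 15, 16 and 17. Their share was 10.4%, 1.34%, 10.4% and 6.47% in AIA 5, 10, 31 and 38. In Acu 4, 6 and 28 it was 3.18%, 3.71% and 7.96%. The highest Control values were above every AIA and Acu library, but Control 17 lay inside the AIA and Acu ranges, so the groups overlapped. The group means were 21.4% ± 14.5 (SD, n = 3), 7.14% ± 4.29 (SD, n = 4) and 4.95% ± 2.62 (SD, n = 3) for Control, AIA and Acu. With Control 17 and Acu 4 left out, the Control mean was 29.3% and the Acu mean 5.84%, and the Control values no longer overlapped the others. Without Control 15 as well, Control 16 was the only library of its group, at 34.2%. As a share of recovered reads, where long genes count for more, the group means were 10.7% in Control, 4.59% in AIA and 2.54% in Acu, in the same order. A share depends on the rest of the library, and immunoglobulin genes alone took 16.2% to 39.7% of summed FPKM in AIA, 0.369% to 20.8% in Acu and 0.0201% to 1.11% in Control. With immunoglobulin genes taken out of the sum, AIA 5, 10, 31 and 38 stood at 17.2%, 1.60%, 15.4% and 9.74%, Acu 4, 6 and 28 at 3.20%, 4.69% and 9.20%, and Control 15, 16 and 17 at 24.5%, 34.5% and 5.72%. The stacked plot of the share shows that subunits of complexes I, III and IV made up most of it.

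**Figure D1:**
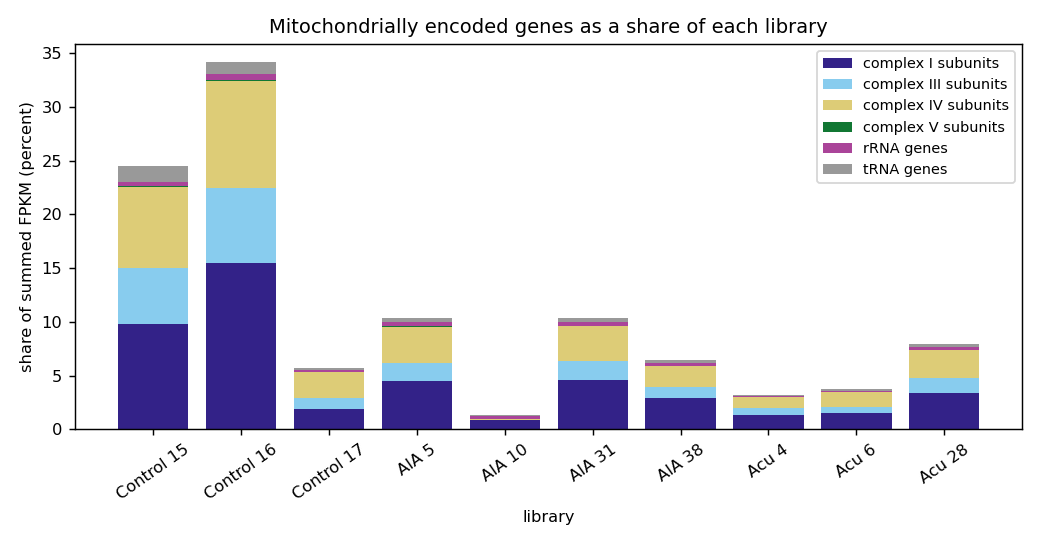
Share of summed FPKM (percent, y axis) taken by mitochondrially encoded genes in each of the 10 libraries (x axis), stacked by class: subunits of complexes I, III, IV and V, rRNA genes and tRNA genes. Control 15 and 16 reach 24.5% and 34.2%, and AIA 10 is lowest at 1.34%.

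Markers of muscle and fat, tissues that lie around the popliteal node, differed between the same libraries. Skeletal muscle and thermogenic fat are known for many mitochondria, and white fat for few. Of 14 skeletal muscle markers, 13 exceeded 1 FPKM in Control 15 and 16, with mean log2(FPKM + 1) levels of 6.62 and 8.38. In AIA 5, 10, 31 and 38 the muscle level was 0.80, 3.38, 5.86 and 3.83, and in Acu 4, 6 and 28 it was 0.91, 5.10 and 6.32. All 12 white adipocyte markers exceeded 1 FPKM in Control 15 and 16, with levels of 9.86 and 7.81, against 1.55 to 3.82 in the other 8 libraries. Thermogenic fat markers averaged 3.92 and 2.55 in Control 15 and 16 and 0.07 to 0.88 elsewhere. Control 16 had both the highest muscle level and the highest mitochondrial share. Control 17 and Acu 4, with muscle levels of 0.70 and 0.91, had shares of 5.72% and 3.18%. AIA 5, with a muscle level of 0.80, had a share of 10.4%, and so had AIA 31, with 5.86. The part of these tissues in the mitochondrial share was not tested. In whole nodes fewer cells of a type and less RNA per cell cannot be told apart.

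Nuclear copies limit how the deposited levels of several members can be read, so the sequences come before the gene values. Each mitochondrial gene was cut into all of its 50-base words, and each word was looked up in the annotated nuclear transcripts of the same build (mm10, GENCODE M21). All 37 genes matched the table by coordinates and length. The share of words also found in the nucleus was 100% for mt-Co2, 99.9% for mt-Co3, 99.5% for mt-Atp6, 98.8% for mt-Nd4l and 98.0% for mt-Nd3. It was 62.2% for mt-Nd4, 51.1% for mt-Co1, 8.19% for mt-Nd2, 7.61% for mt-Nd5 and 1.04% for mt-Rnr2. No such word was found for mt-Nd1, mt-Nd6, mt-Cytb, mt-Atp8, mt-Rnr1 or any tRNA gene. Nuclear sequence outside annotated transcripts was not searched, so a copy there would be missed. A run of 7 annotated transcripts in a single stretch of chromosome 1 (chr1:24611535-24616197, minus strand) carried most of the shared words, in the same gene order as in mitochondria: Gm28439 for mt-Nd4, Gm10222 for mt-Nd4l, Gm28438 for mt-Nd3, Gm28437 for mt-Co3, Gm10925 for mt-Atp6, Gm28661 for mt-Co2 and Gm29216 for mt-Co1. Of these 7, all but Gm28438 and Gm29216 matched their mitochondrial gene at 100% of aligned bases, and Gm28438 differed from mt-Nd3 by the single substitution T3C (mitochondrial base first, counted from 1 at the start of the gene).

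The first 60 bases of mt-Nd3 (chrMT:9459-9806, plus strand) and of Gm28438 (chr1:24612775-24613119, minus strand) are shown because a single base separates the pair, with that base in capitals.
mt-Nd3: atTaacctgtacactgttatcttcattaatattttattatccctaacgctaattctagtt
Gm28438: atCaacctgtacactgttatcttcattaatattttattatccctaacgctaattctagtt

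The deposited levels of the protein genes divided sharply into a low and a high set. Whether nuclear copies account for the low set was not tested. The 6 protein genes that lie next to each other from mt-Co2 to mt-Nd4l (chrMT:7013-10173) had mean FPKM over the 10 libraries of 2.80 to 137, and together they made up 0.545% to 1.76% of the summed FPKM of the 13 protein genes. The other 7 protein genes had means of 2278 to 14855. FPKM is scaled to gene length, but this does not correct for reads shared with copies or with overlapping genes. Nor does it correct for genes nearly as short as the library fragments. The levels can therefore be set side by side only roughly. The genes of the low stretch encode subunits of complexes I, IV and V that are assembled into the same chain as the products of the high genes. The 5 members of this stretch other than mt-Atp8 were those with at least 98.0% of their words in the nucleus. mt-Atp8 shared none with annotated transcripts, but it lies between mt-Co2 and mt-Atp6. On chromosome 1 the bases between their copies, from the end of Gm10925 (24614651) to the start of Gm28661 (24614885), were not searched. Whether a copy of mt-Atp8 lies there was not tested. mt-Atp8 had the lowest mean of the protein genes (2.80 FPKM). It is printed below because its last 43 bases (chrMT:7927-7969), in capitals, are also the first bases of mt-Atp6. A read that touches such an overlap may be counted for either gene or for neither; the sources used here do not give the counting rule.
mt-Atp8: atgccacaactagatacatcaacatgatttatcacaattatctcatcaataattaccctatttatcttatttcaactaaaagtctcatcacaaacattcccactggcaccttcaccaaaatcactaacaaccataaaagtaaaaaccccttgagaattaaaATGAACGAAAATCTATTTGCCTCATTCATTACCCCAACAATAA

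The chromosome 1 copies were listed at levels close to those of the low mitochondrial genes. The ratio of mt-Co2 to Gm28661 lay between 0.967 and 2.08 in 10 of 10 libraries. The ratio of mt-Atp6 to Gm10925 ran from 0.730 to 1.39, and that of mt-Co3 to Gm28437 from 0.615 to 2.23. For mt-Nd4l against Gm10222 it ran from 0.913 to 2.13 in 9 libraries, and in AIA 10 mt-Nd4l was listed at 0. By contrast mt-Nd4 exceeded Gm28439 between 36.7-fold and 202-fold, and mt-Co1 exceeded Gm29216 between 3.15-fold and 453-fold, with AIA 10 lowest for each. The levels of mt-Co2, mt-Atp6, mt-Co3, mt-Nd3 and mt-Nd4l are therefore uncertain, and the table alone does not separate them from their copies.

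The pair separated by a single base behaved differently from the rest. The ratio of mt-Nd3 to Gm28438 was 5.58 for Control 17 and 6.67 for Acu 4. In Control 15 and 16 it was 0.0995 and 0.186. In AIA 5, 10, 31 and 38 it was 0.104, 0.0861, 0.0976 and 0.0843, and in Acu 6 and 28 it was 0.0744 and 0.125. The pair of libraries with decidua markers thus favoured mt-Nd3, and the other 8 favoured Gm28438, with no value between 0.186 and 5.58. Gm28438 itself stood at 3.02 and 2.003 FPKM in Control 17 and Acu 4 and at 22.9 to 220 FPKM in the other 8. Of the other 6 pairs, mt-Nd4l against Gm10222 was also highest in Control 17 and Acu 4 (1.77 and 2.13, against 0 to 1.73), and the other 5 overlapped. What sets the mt-Nd3 pair apart was not tested, and the files hold no reads that would show which base was sequenced.

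**Figure D2:**
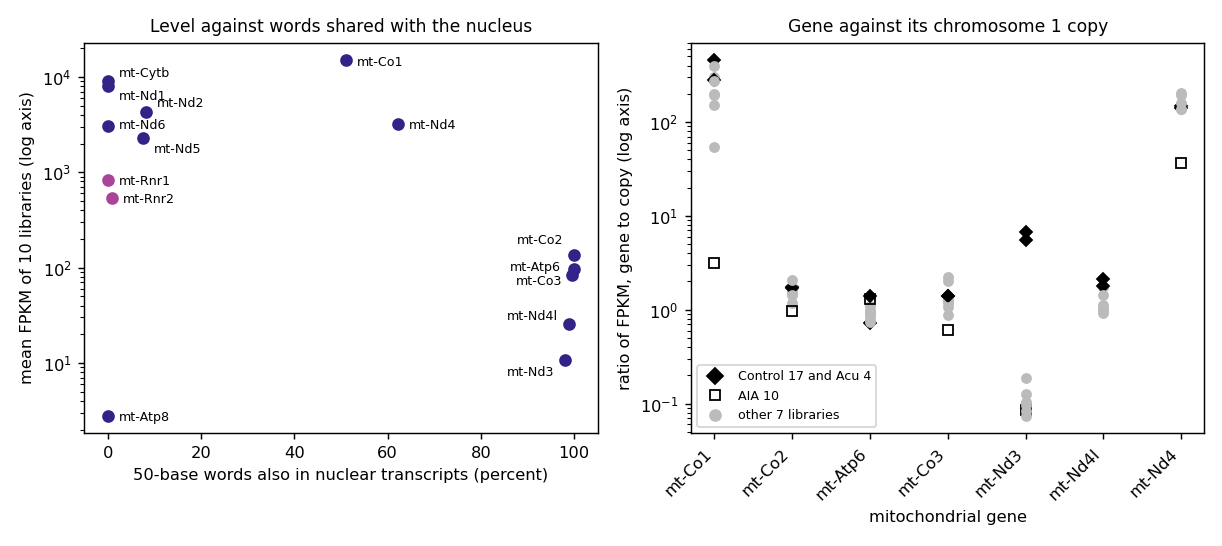
Left, mean FPKM over the 10 libraries (log axis) of the 13 protein and 2 rRNA genes against the percent of their 50-base words found in annotated nuclear transcripts. Right, ratio of FPKM of 7 mitochondrial genes to their chromosome 1 copies (log axis), a point per library; for mt-Nd3 the libraries Control 17 and Acu 4 lie at 5.58 and 6.67 and the others at 0.0744 to 0.186, and mt-Nd4l in AIA 10, listed at 0, is not drawn.

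Complex IV, cytochrome c oxidase, passes electrons to oxygen, and mt-Co1 encodes its catalytic subunit. mt-Co1 had the highest mean of the 37 genes. It stood at 33911, 41653 and 9659 FPKM in Control 15, 16 and 17. The AIA values were 19122, 231, 15236 and 10275 FPKM in libraries 5, 10, 31 and 38, and the Acu values were 4511, 4669 and 9279 FPKM in 4, 6 and 28. Every Acu library lay below every Control library, Control 17 and Acu 28 being nearly equal, while AIA 10 lay below every other library and the other 3 AIA libraries lay between Control 17 and Control 15. mt-Co2 ran from 66.3 to 394 FPKM in Control, 76.1 to 162 in AIA and 28.7 to 97.3 in Acu, and mt-Co3 from 24.3 to 353, 11.4 to 87.9 and 17.6 to 43.1.

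Complex III has a single mitochondrial subunit, cytochrome b, encoded by mt-Cytb. Its FPKM was 23628, 29913 and 4142 in Control 15, 16 and 17. In AIA 5, 10, 31 and 38 it was 9497, 480, 8496 and 5100, and in Acu 4, 6 and 28 it was 2590, 2076 and 5038. The order of the libraries was much like that of mt-Co1: 2 Control libraries on top, AIA 10 at the bottom, and Control 17 within the range of the others.

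Complex I, NADH dehydrogenase, takes 7 of the 13 proteins. mt-Nd1, part of its membrane arm, stood at 18007, 25767 and 3046 FPKM in Control 15, 16 and 17, at 9711, 1186, 8180 and 5489 in AIA 5, 10, 31 and 38, and at 2176, 2088 and 5018 in Acu 4, 6 and 28. mt-Nd2 ran from 1422 to 14898 FPKM in Control, 1298 to 4410 in AIA and 827 to 2120 in Acu, and mt-Nd5 from 1095 to 6390, 172 to 3277 and 764 to 1565. mt-Nd4 was 8310, 11008 and 1139 FPKM in Control, 3490, 37.0, 3000 and 1803 in AIA, and 893, 656 and 1695 in Acu, in the same order of libraries. mt-Nd3 was 21.9, 22.9 and 16.8 in Control, 9.21, 6.34, 6.31 and 5.07 in AIA, and 13.4, 1.70 and 5.01 in Acu. The Control values of mt-Nd3 lay above all AIA and Acu values, and Acu 4 and Control 17, the libraries with the unusual ratio to Gm28438, were close together. mt-Nd4l ran from 12.9 to 103 FPKM in Control, 0 to 30.1 in AIA and 8.30 to 16.6 in Acu.

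mt-Nd6 is the only protein gene on the other strand, and the last 200 of its 519 bases (chrMT:13552-13751, minus strand) are printed because much of the balance described below turns on it. Its last 14 bases, in capitals (chrMT:13552-13565), lie opposite the end of mt-Nd5, so reads there could be counted for either gene unless strand was used. If counting ignored strand, reads of plus-strand precursors could also be counted for mt-Nd6 over all 519 bases. The same holds for the minus-strand tRNA genes. The sources used here do not say whether counting used strand. The strand bias of its letters sets it apart from the other 12 protein genes: it holds 28.1% G and 5.97% C, whereas G makes up 5.88% to 16.1% of the others.
mt-Nd6: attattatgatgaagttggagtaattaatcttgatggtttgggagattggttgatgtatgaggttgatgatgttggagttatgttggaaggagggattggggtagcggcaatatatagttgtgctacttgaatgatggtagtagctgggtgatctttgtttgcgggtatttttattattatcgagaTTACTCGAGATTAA

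mt-Nd6 stood at 5550, 7671 and 835 FPKM in Control 15, 16 and 17. The AIA values were 4684, 2961, 3272 and 2466 in libraries 5, 10, 31 and 38, and the Acu values were 796, 741 and 1805 in 4, 6 and 28. AIA 10 was second lowest of its group here, 1.105-fold below the median of the other 3 AIA libraries. Every Acu library lay below every AIA library. Complex V, the ATP synthase, takes mt-Atp6 and mt-Atp8. mt-Atp6 ran from 29.7 to 264 FPKM in Control, 9.33 to 94.5 in AIA and 20.8 to 49.5 in Acu, and mt-Atp8 from 1.28 to 10.5, 0 to 3.68 and 0 to 1.71.

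The ribosomal RNAs, mt-Rnr1 (12S) and mt-Rnr2 (16S), are abundant in mitochondria but were only a minor part of these libraries. The sources used here do not give how RNA was selected or depleted before sequencing. mt-Rnr1 stood at 1114, 1443 and 436 FPKM in Control 15, 16 and 17, at 1474, 1000 (AIA 10), 1042 and 877 in AIA, and at 166, 273 and 559 in Acu 4, 6 and 28. mt-Rnr2 stood at 664, 962 and 248 FPKM in Control, 942, 726, 633 and 580 in AIA 5, 10, 31 and 38, and 133, 158 and 360 in Acu. For each rRNA all 4 AIA libraries lay above all 3 Acu libraries, and AIA 10 was among its group. The ratio of mt-Rnr1 to mt-Rnr2 stayed between 1.25 and 1.76 in the 10 libraries.

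Of the 22 tRNA genes, which are shorter than most library fragments, 5 were listed at 0 in all libraries (mt-Tf, mt-Tv, mt-Td, mt-Tk and mt-Tt), and 16 passed the filter on low values (3 or more libraries with an FPKM of 0.5 or above). The 3 with the highest means, mt-Tp for proline, mt-Tc for cysteine and mt-Tn for asparagine, lie on the minus strand with mt-Nd6. mt-Tp and mt-Tc are printed, with mt-Ts2 for serine and mt-Te for glutamate, because they carried the largest or most divergent tRNA values. mt-Ts2 and mt-Te were chosen after their values were seen.
mt-Tp: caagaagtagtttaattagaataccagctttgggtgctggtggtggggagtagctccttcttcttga
mt-Tc: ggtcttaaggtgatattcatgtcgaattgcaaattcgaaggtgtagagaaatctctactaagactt
mt-Ts2: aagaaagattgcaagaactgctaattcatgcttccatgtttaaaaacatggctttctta
mt-Te: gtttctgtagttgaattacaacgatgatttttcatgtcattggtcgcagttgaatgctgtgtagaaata

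mt-Tp (chrMT:15356-15422, minus strand) stood at 5619, 3484 and 584 FPKM in Control, 1356, 117, 1181 and 912 in AIA 5, 10, 31 and 38, and 224, 198 and 601 in Acu. mt-Tc (chrMT:5192-5257, minus strand) stood at 397, 499 and 143 FPKM in Control, 429, 422, 326 and 181 in AIA, and 46.6, 77.0 and 184 in Acu. mt-Tn ranged from 92.7 to 401 FPKM in Control, 131 to 305 in AIA and 29.2 to 217 in Acu. These genes lie on the same strand but did not share a pattern, since AIA 10 was lowest of all 10 libraries for mt-Tp and second highest of AIA for mt-Tc. If counting ignored strand, reads of plus-strand precursors could enter these values. mt-Ts2 (chrMT:11613-11671, plus strand) stood at 26.8, 16.5 and 7.73 FPKM in Control, 33.5, 59.8, 42.0 and 27.9 in AIA, and 2.13, 5.02 and 10.1 in Acu, with AIA above both other groups in every library. Of all genes tested, 11.4% lay higher in AIA than in Control with no overlap, and 5.1% lower in Acu than in AIA. Reads on mt-Ts2 were few, from 2 in Acu 4 to 44 in AIA 31. mt-Te (chrMT:14071-14139, minus strand) stood at 72.3, 132 and 11.3 FPKM in Control, 1.98, 0, 16.3 and 2.56 in AIA, and 22.8, 4.29 and 11.6 in Acu. A few reads on a tRNA gene can come from an uncut precursor, and the mature tRNA cannot be told apart from it here.

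The library AIA 10 departed from the other 3 AIA libraries in a gene-specific way. Against their median, it was 81.1-fold lower for mt-Nd4, 65.9-fold lower for mt-Co1, 17.7-fold lower for mt-Cytb and 17.4-fold lower for mt-Nd5. The difference was 6.90-fold for mt-Nd1, 6.20-fold for mt-Atp6, 5.85-fold for mt-Co3 and 3.33-fold for mt-Nd2, and mt-Nd4l and mt-Atp8 were listed at 0. On the other hand mt-Nd6, mt-Co2, mt-Nd3 and both rRNA genes lay within the range of the other 3. mt-Th, mt-Ts2 and mt-Tl2, a run of adjacent tRNA genes upstream of mt-Nd5 chosen after their values were seen, were highest in AIA 10 among the AIA libraries, at 48.7, 59.8 and 28.6 FPKM. The plot of levels along mitochondrial DNA shows this as a line that crosses the others. AIA 10 starts among its group at the rRNA genes and is lowest of the 10 libraries at mt-Nd1. At mt-Nd2 it is lowest of AIA but above Acu 4 and Acu 6, and at mt-Co1 it is lowest of all. It rejoins its group at mt-Co2, is listed at 0 with Acu 6 at mt-Atp8, and is lowest at mt-Atp6 and mt-Co3. It rejoins again at mt-Nd3, is lowest at mt-Nd4l, mt-Nd4 and mt-Nd5, stands within its group at mt-Nd6, and is lowest at mt-Cytb.

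**Figure D3:**
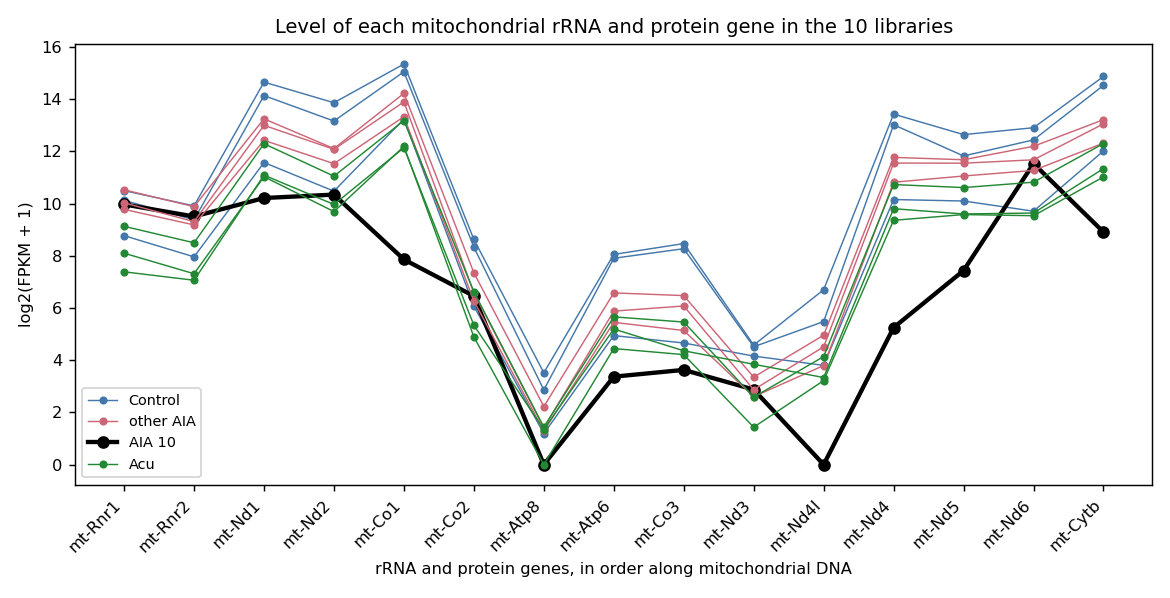
log2(FPKM + 1) (y axis) of the 2 rRNA and 13 protein genes in their order along mitochondrial DNA (x axis), a line per library, with AIA 10 in black and the other libraries coloured by group. AIA 10 lies at 7.86 for mt-Co1 and 5.25 for mt-Nd4, below the other 9 libraries, and among its group for mt-Rnr1, mt-Rnr2 and mt-Nd6.

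Much else was low in AIA 10, which sets the background for these values. AIA 10 was the lowest AIA library for 10 of the 15 rRNA and protein genes and for 46.1% of all 17010 genes tested. It was more than 4-fold below the lowest other AIA library for 8 of the 15, against 19.6% of all genes. Its gap to the other 3 passed Dixon's 95% critical value for 4 values on the low side for 3 of the 15 (mt-Co1, mt-Nd4 and mt-Nd5), against 5.86% of all genes. The median log2 difference between AIA 10 and the median of the other 3 was -2.65 over the plus-strand protein genes and -0.16 over all genes tested. The chromosome 1 copies, except that of mt-Co1, differed among themselves in AIA 10 as their mitochondrial genes did. Gm28661 (for mt-Co2) and Gm28438 (for mt-Nd3) stood at 89.8 and 73.6 FPKM, within the range of the other AIA libraries. Gm28439 (for mt-Nd4), Gm10925 (for mt-Atp6) and Gm28437 (for mt-Co3) stood at 1.01, 7.16 and 18.5 FPKM, below it. Gm10222 (for mt-Nd4l) was also below the range, at 9.90 FPKM. Gm29216 (for mt-Co1) was within it, at 73.3 FPKM, whereas mt-Co1 itself was below every other AIA library. The part of RNA quality in AIA 10 was not tested.

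The balance between the members, which does not depend on how libraries are scaled, varied less among 9 libraries than between them and AIA 10 for mt-Co1, mt-Cytb, mt-Nd2 and mt-Nd6. As a percent of the summed FPKM of the 13 protein genes, mt-Co1 made up 30.1% to 44.9%, mt-Cytb 16.8% to 22.9%, mt-Nd1 14.2% to 18.8%, mt-Nd2 6.62% to 10.8% and mt-Nd6 3.89% to 8.58%. In AIA 10 mt-Co1 made up 3.57%, mt-Cytb 7.40%, mt-Nd1 18.3%, mt-Nd2 20.0% and mt-Nd6 45.7%. By complex, complex I subunits took 35.2% to 48.9% in the 9 libraries and 87.4% in AIA 10, and complex IV subunits took 30.6% to 45.4% and 5.08%. mt-Nd1 alone of these 5 genes kept its part in AIA 10.

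Relative to mt-Cytb, which shares no word with annotated nuclear transcripts, mt-Nd6 separated the 3 groups. This pair of genes was chosen after the values were seen, so its ratios are a description with no test. The ratio was 0.235, 0.256 and 0.202 in Control 15, 16 and 17. It was 0.493, 6.17, 0.385 and 0.484 in AIA 5, 10, 31 and 38, and 0.307, 0.357 and 0.358 in Acu 4, 6 and 28. The ranges did not overlap between any groups: Control lay lowest, Acu between, and AIA highest. The limit on strand given above for mt-Nd6 applies to this ratio as well. The distance between the highest Acu value and the lowest AIA value was small, 0.358 against 0.385. Among all other genes set against mt-Cytb, 15.6% lay higher in AIA than in Control with no overlap, 31.4% higher in Acu than in Control, and 7.67% did not overlap in either direction between Acu and AIA. Of the 14 other rRNA and protein genes, 5 did not overlap between AIA and Control (mt-Rnr1, mt-Rnr2, mt-Nd1, mt-Nd5 and mt-Nd6, each higher in AIA), 3 between Acu and AIA (mt-Nd2 and mt-Nd6 lower and mt-Nd4l higher in Acu) and 2 between Acu and Control (mt-Nd5 and mt-Nd6, higher in Acu). With Acu lower than AIA the share of all genes was 0.135%. These shares of all genes also reflect mt-Cytb itself. It was higher in AIA 5, 31 and 38 (9497, 8496 and 5100 FPKM) than in every Acu library (2590, 2076 and 5038). A gene with an even level thus has a higher ratio in Acu than in those AIA libraries. The 0.135% therefore does not measure how unusual mt-Nd6 or mt-Nd2 was.

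Both rRNA genes together amounted to 1.72%, 1.74% and 3.18% of the summed FPKM of the protein genes in Control 15, 16 and 17. In AIA 5, 10, 31 and 38 they amounted to 4.43%, 26.6%, 3.66% and 4.79%, and in Acu 4, 6 and 28 to 2.32%, 3.62% and 3.44%. AIA lay above both other groups in every library, by a narrow margin over Acu 6, and Control and Acu overlapped through Control 17.

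**Figure D4:**
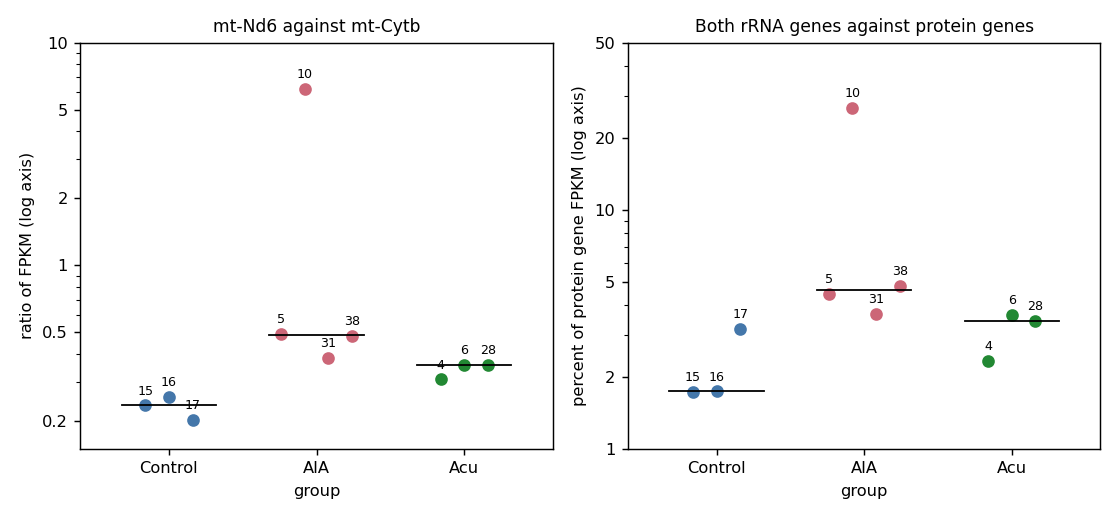
Ratio of mt-Nd6 to mt-Cytb FPKM (left, log axis) and FPKM of both rRNA genes as a percent of that of the 13 protein genes (right, log axis), a point per library labelled with its number, with a line at each group's median. mt-Nd6 relative to mt-Cytb is 0.202 to 0.256 in Control, 0.307 to 0.358 in Acu and 0.385 to 6.17 in AIA.

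The levels were tested with limma on log2(FPKM + 1) over all genes that passed the filter, with Benjamini-Hochberg adjustment and a threshold of 0.05. Of the 37 members 31 passed the filter: 13 protein, 2 rRNA and 16 tRNA genes. The first comparison asked how adjuvant nodes differ from saline nodes. All 13 protein genes had a lower fitted level in AIA than in Control, with log2 fold changes from -2.35 to -0.02 and a median of -1.49, against a median of -0.07 over all genes tested. The rRNA genes had log2 fold changes of 0.28 ± 0.59 (SE) for mt-Rnr1 and 0.39 ± 0.57 (SE) for mt-Rnr2. None of the members passed the test by limma, and 0.0235% of all genes did (4 genes). At an unadjusted p under 0.05 there were 6 members and 4246 genes, and limma voom on the recovered reads also called 0 members. The smallest limma adjusted p was that of mt-Te, 0.0920, with a log2 fold change of -3.75 ± 1.04 (SE), and among protein genes that of mt-Nd3, 0.121, with -1.49 ± 0.49 (SE). The FPKM ranges of the groups did not overlap for mt-Nd3, lower in AIA, among the 15 rRNA and protein genes, and for 13.8% of all genes with AIA lower.

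With the libraries labelled Control 17 and Acu 4 left out, 5 members were called lower in AIA than in Control, beside 9.2% of all genes called lower. They were mt-Co3 (limma log2 fold change -3.05, adjusted p 0.0352), mt-Nd3 (-1.63, adjusted p 0.0270), mt-Te (-4.75, adjusted p 0.0174), mt-Ti for isoleucine (-2.71, adjusted p 0.0103) and mt-Tm for methionine (-2.46, adjusted p 0.0460). The pair of protein genes among them, mt-Co3 and mt-Nd3, are those whose reads may be shared with nuclear copies. Without Control 15 as well, which leaves Control 16 alone in its group with a spread assumed to be that of the other groups, 1 member was called (mt-Ti), beside 3.1% of all genes. The tRNA genes mt-Ti and mt-Tm had at most 12.3 FPKM in any library, and their calls rest on few reads. mt-Ti had 6 and 11 reads in Control 15 and 16, and 0, 0, 0 and 2 in AIA 5, 10, 31 and 38. mt-Tm had 14 and 4 reads in those Control libraries, and 0, 0, 4 and 0 in AIA. Leaving out Control 17 alone gave 3 members called, beside 5.77% of all genes, and leaving out Acu 4 alone gave 2, beside 10.4%. Weighting libraries by their fit in place of leaving any out (limma's array weights) gave 1 member called in this comparison, beside 19.5% of all genes.

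The second comparison asked how acupuncture changed the nodes of adjuvant mice. Of the 13 protein genes 10 had a lower fitted level in Acu than in AIA, with log2 fold changes from -1.67 for mt-Nd6 to 0.25 and a median of -0.32, against 0.08 over all genes. Both rRNA genes were lower by the fit, with -1.87 ± 0.59 (SE) for mt-Rnr1 and -1.85 ± 0.57 (SE) for mt-Rnr2, each at a limma adjusted p of 0.746. None of the 31 members was called by limma, and 0.0% of all genes were. At an unadjusted p under 0.05 there were 5 members and 799 genes, and limma voom on the recovered reads called 0 members. Without Control 17 and Acu 4 there were 0 members and 0.0% of all genes, and with array weights 2 members, beside 0.576% of all genes. The smallest limma adjusted p was that of mt-Ts2, 0.521, with a log2 fold change of -2.76 ± 0.52 (SE). FPKM ranges did not overlap for 3 of the 15 rRNA and protein genes (mt-Rnr1, mt-Rnr2 and mt-Nd6, each lower in Acu), beside 5.1% of all genes with Acu lower. Which way the fitted difference of mt-Co1, mt-Nd4 and mt-Nd4l pointed rested on AIA 10: for mt-Co1 the log2 fold change was 0.18 ± 1.51 (SE) with all libraries, -1.37 without AIA 10 and -0.17 without Acu 28.

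The third comparison set acupuncture-treated adjuvant nodes against saline nodes, and it shares its libraries with the other comparisons. All 13 protein genes had a lower fitted level in Acu than in Control, with log2 fold changes from -2.45 for mt-Co3 to -1.59 and a median of -1.98, against 0.02 over all genes. The rRNA genes stood at -1.59 ± 0.63 (SE) for mt-Rnr1 and -1.46 ± 0.60 (SE) for mt-Rnr2. None of the members and 0.0% of all genes were called by limma. At an unadjusted p under 0.05 there were 12 members and 1275 genes, and voom again called 0 members. The smallest limma adjusted p was that of mt-Nd3, 0.597. FPKM ranges did not overlap for mt-Co1 and mt-Nd3 among the 15, lower in Acu, beside 4.27% of all genes lower.

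With Control 17 and Acu 4 left out, mt-Nd3 was called lower in Acu (limma log2 fold change -2.54, adjusted p 0.0222), beside 3.55% of all genes called lower. Without Control 15 as well, 0 members and 0.0% of all genes were called, and mt-Nd3 stood at -2.60 with a limma adjusted p of 0.118. Leaving out Control 17 alone or Acu 4 alone also gave 1 member called, beside 1.8% and 0.515% of all genes, and array weights gave 6, beside 12.2%. With Control 17, Acu 4 and AIA 10 left out, an alternative chosen after seeing the data, 11 members were called lower in Acu than in Control, 9 of them protein genes, beside 7.49% of all genes called lower. These were mt-Nd2, mt-Nd4, mt-Cytb, mt-Atp8, mt-Co2, mt-Atp6, mt-Co3, mt-Nd3 and mt-Nd4l. The last 5 may share reads with nuclear copies, and mt-Atp8 had at most 33 reads in a library. Control 15, which went against its labelled tissue, was kept. In that fit the comparison of AIA with Control called 5 members lower and mt-Tr, for arginine, higher, beside 21.4% of all genes called. The protein genes among the lower members were mt-Atp6, mt-Co3 and mt-Nd3, whose reads may be shared with nuclear copies. The call of mt-Tr carries no weight: among the libraries of that fit it was above 0 only in AIA 5, 31 and 38. It passed the filter through that group alone, on 4, 3 and 1 reads. The comparison of Acu with AIA called 0 members and 0.0% of all genes in that fit. AIA 10 is in neither group of the comparison of Acu with Control, but it enters that fit through the shared estimate of the spread, the filter and the scaling.

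The nuclear genes that build the same complexes did not share the drop in AIA 10. Complex I accessory subunits had a mean log2(FPKM + 1) level of 6.43 in AIA 10, against 4.88 to 4.93 in the other AIA libraries. Nuclear complex IV subunits stood at 7.83 against 6.46 to 6.74, complex III subunits at 6.24 against 5.35 to 5.59, and nuclear ATP synthase subunits at 6.52 against 5.13 to 5.32. The 13 mitochondrially encoded protein genes stood at 5.99 in AIA 10, against 8.25 to 9.18. In Control 15 and 16 nuclear and mitochondrial subunits were both high: the complex IV lists stood at 8.61 and 7.73, and the mitochondrial protein genes at 10.12 and 10.59. In Control 17 they stood at 6.41 and 7.85, within the range of the AIA and Acu libraries.

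**Figure D5:**
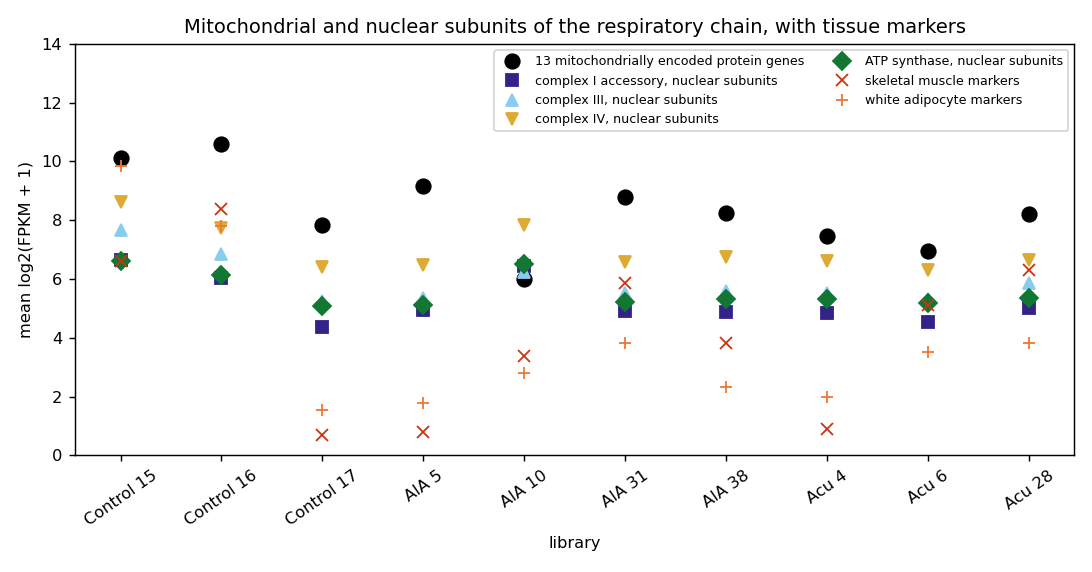
Mean log2(FPKM + 1) (y axis) in each library (x axis) of the 13 mitochondrially encoded protein genes, of nuclear subunits of complexes I (accessory subunits), III, IV and V (ATP synthase), and of skeletal muscle and white adipocyte markers. In AIA 10 the mitochondrial genes stand at 5.99, below the 4 nuclear lists drawn, whereas in the other 9 libraries they lie above them.

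None of the nuclear subunits passed limma's test in the fit of all 10 libraries, and 7, 0 and 5 of them had an unadjusted p under 0.05 in AIA against Control, Acu against AIA and Acu against Control. Of all 17010 genes tested, 4246, 799 and 1275 had such a p in these comparisons. Of 80 listed subunits of the 5 complexes, 78 were tested, and their median log2 fold change was -0.55 for AIA against Control, -0.42 for Acu against AIA and -0.96 for Acu against Control. With Control 17 and Acu 4 left out, 16 of 78 were called lower and 0 higher in AIA than in Control, beside the 9.2% of all genes called lower given above, among them Cyc1 (-2.21, limma adjusted p 0.0119) and Uqcrfs1 (-2.17, adjusted p 0.0133), subunits of complex III that carry electrons. Other genes among those with the smallest p in their lists were also called lower by limma: Ndufs1 (-1.64) of the complex I core, Ndufa10 (-1.35) and Ndufb4 (-1.44) of its accessory subunits, Sdha (-2.15) and Sdhc (-1.41) of complex II, Cox5b (-1.36) of complex IV and Atp5a1 (-1.61) of the ATP synthase, at adjusted p of 0.0150 to 0.0399. Cox7a1 (-4.36, adjusted p 0.0195) and Cox8b (-5.86, adjusted p 0.0224), complex IV isoforms known from muscle and brown fat, were also called lower in AIA by limma. In the same fit Ndufa10 (-2.02, adjusted p 0.0290) and Ndufb4 (-1.73, adjusted p 0.0425), accessory subunits of complex I, were called lower in Acu than in Control. They were 2 of 78 tested, a smaller share than the 3.55% of all genes called lower in that fit. In that fit Control 15 and 16 were the only Control libraries, and Control 15 went against its labelled tissue by its lymphocyte markers. Without Control 15 as well, the median log2 fold changes of the 78 against Control were -0.92 for AIA and -1.26 for Acu. The muscle and fat levels given above were highest in Control 15 and 16. Complex I accessory subunits were high there too (6.65 and 6.04), but also in AIA 10 (6.43), whose muscle and white adipocyte levels were 3.38 and 2.81. The part of muscle and fat was not tested.

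The nuclear factors that copy, transcribe and process mitochondrial DNA had median log2 fold changes nearer to 0 than the subunits in AIA against Control. The 10 genes of mitochondrial transcription, such as the polymerase Polrmt and the packaging factor Tfam, had a median log2 fold change of 0.09 for AIA against Control and -0.36 for Acu against AIA, and the 13 genes of mitochondrial DNA replication had 0.07 and -0.0047. None passed limma's test with all 10 libraries or without Control 17 and Acu 4, and at an unadjusted p under 0.05 there were 0 of either list with all 10 libraries and 1 of each in AIA against Control without those 2. In the latter comparison 4871 of all 16067 genes had such a p. Of 19 tested genes of mitochondrial RNA processing, 2 were called in AIA against Control without those libraries, beside 13.5% of all genes called in either direction: Fastk, an RNA-binding protein, was lower (-1.44, limma adjusted p 0.0362), and Rexo2, an exonuclease that clears short RNA, was higher (1.46, adjusted p 0.0195). Of 12 genes of mitochondrial translation 0 were called by limma in either fit, with a median of -0.29 for AIA against Control. Of the regulators of mitochondrial biogenesis 7 of 10 were tested, and Perm1, a muscle factor, was called lower in AIA without those libraries (-1.81, limma adjusted p 0.0300), 1 of the 7. Such counts are close to what all genes gave. Without Control 15 as well, limma called 0 genes of the RNA processing and biogenesis lists, with 2 and 1 at an unadjusted p under 0.05. In AIA 10 the mean levels of the transcription, replication and RNA processing lists were 2.48, 2.43 and 2.86, against 2.52 to 2.92, 2.35 to 2.57 and 3.07 to 3.09 in the other AIA libraries.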

How the data were processed

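FPKM, a length-scaled expression value, was deposited by the authors for 54987 genes in 10 libraries. RNA extraction used Trizol and library preparation a NEBNext Ultra kit, as stated per the labels' protocols. The tools named per the submitters' processing notes, with no role given, are featureCounts 1.5.0-p3, HISAT2 2.0.5, DESeq2 1.16.1 and StringTie 1.3.3b, with build mm10; the sources used here do not say whether counting used strand or how reads with several matches were treated. FPKM times gene length was a whole multiple of 1 step per library for 100% of values above 0 (tolerance 0.01 of a step), which returned the reads (13269763 to 18926894 per library).

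Values were scaled by the median of ratios (factor 0.996 in each library, so the deposited FPKM were already scaled). limma 3.58.1 in R 4.3.3, with a mean-variance trend, was fitted to log2(FPKM + 1) with all 3 groups in 1 fit, over the 17010 genes for which 3 or more libraries had an FPKM of 0.5 or above, at a Benjamini-Hochberg threshold of 0.05. The pseudocount of 1 understates changes of low genes. SE is limma's standard error and SD the spread between libraries. The fit was tested on simulated data. Shares and ratios carry no p. Sequences came from GENCODE M21 transcripts. The text names all protein and rRNA genes, the 3 tRNA genes with the highest means, and of nuclear lists the 2 genes with the smallest p in a comparison where any passed, except for 1 result that is not reported here; other tRNA genes were named after their values were seen. Members and lists were chosen with earlier results of these data known. Alternatives were another scaling, pseudocount or filter, voom on reads, array weights and leaving out libraries.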

Additional observations from a re-analysis of the deposited data

Results flagged for a closer look

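All flagged values belong to AIA 10, whose gap to the nearest of the other 3 AIA libraries exceeded Dixon's 95% critical value for 4 values; chance flags about 1 in 20 such groups, and these values share a library and, for the percents, a sum. On the log2(FPKM + 1) scale mt-Co1 stood at 7.86, mt-Nd4 at 5.25 and mt-Nd5 at 7.43, each low. As a percent of the 13 protein genes, mt-Nd2 (20.0%), mt-Co2 (1.34%), mt-Nd3 (0.0978%) and mt-Nd6 (45.7%) were high, and mt-Co1 (3.57%), mt-Nd4 (0.571%) and mt-Cytb (7.40%) were low. By complex, complex I (87.4%) was high, and complex III (7.40%) and complex IV (5.08%) were low. The ratio of mt-Nd6 to mt-Cytb (6.17) and both rRNA genes as a percent of the protein genes (26.6%) were high.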

How the results depend on the processing

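No paired analysis was possible because the groups share no replicate number. The number of members called by limma in AIA against Control was 0 in the planned fit and with the same summed FPKM, no rescaling, a pseudocount of 0.1, no filter or voom; it was 1 with array weights, 5 without Control 17 and Acu 4, 1 without Control 15 as well, and 6 without Control 17, Acu 4 and AIA 10, the last chosen after seeing the data. With 1 library left out it was 0 to 3: 3 without Control 17, 2 without Acu 4 and 0 otherwise. For Acu against AIA it was 0 except 2 with array weights. For Acu against Control it was 6 with array weights, 1 without Control 17 and Acu 4, 0 without Control 15 as well, 11 without AIA 10 in place of Control 15, and 0 to 1 with 1 library left out (1 without Control 17 and 1 without Acu 4). Array weights called 19.5%, 0.576% and 12.2% of all genes in the 3 comparisons.

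Some log2 fold changes changed sign, none of them called; the cause was not tested. For AIA against Control mt-Rnr1 was -0.092 with the same summed FPKM, -0.25 without Control 17 and Acu 4, -0.46 without Control 15 as well and -0.13 without AIA 10 in place of Control 15, and mt-Rnr2 was -0.19, -0.48 and -0.11 in the last 3 of these. For Acu against AIA, array weights gave -1.26 for mt-Co1, -0.89 for mt-Nd4l and -1.56 for mt-Nd4, and leaving out Control 17, Acu 4 and AIA 10 gave -1.15, -0.76 and -1.35. With the same summed FPKM mt-Atp6 was 0.32, mt-Nd3 0.15, mt-Nd5 0.064 and mt-Cytb 0.24. With 1 library left out, AIA against Control ranged from -1.0002 to 0.59 for mt-Nd6, -0.23 to 0.63 for mt-Rnr1 and -0.17 to 0.80 for mt-Rnr2. Acu against AIA ranged from -1.37 to 0.81 for mt-Co1, -0.75 to 0.16 for mt-Atp8, -0.92 to 0.20 for mt-Atp6, -0.91 to 0.29 for mt-Nd3, -0.91 to 0.80 for mt-Nd4l, -1.47 to 0.76 for mt-Nd4 and -1.36 to 0.12 for mt-Cytb. In Acu against Control 0 of the 15 rRNA and protein genes changed sign.

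In reads, where a gene's length counts, the median ratio of mt-Nd6 to mt-Cytb was 0.107 in Control and 0.162 in Acu, against 0.235 and 0.357 in FPKM, and 0.222 in AIA; the order of the groups was the same. Mean shares of recovered reads were 10.7%, 4.59% and 2.54% in Control, AIA and Acu, against 21.4%, 7.14% and 4.95% of summed FPKM. Without immunoglobulin genes the AIA mean was 11.0%. All mean shares moved by less than 1 SD in the alternatives run, but the SD is wide. Counting error is small for the abundant genes, but tRNA genes and mt-Atp8 rest on few reads.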
